A study of Mus musculus with 6 samples.

Results

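Cornified envelope precursor genes were taken as every row of the count table whose symbol begins with Sprr or Lce followed by a digit, together with Ivl, Lor, Flg2, Krtdap, Calm4, Sbsn, Cnfn, Rptn and Hrnr. The rule matched 45 of 24054 rows, and the 43 with any reads are described here. They comprise 2 Sprr1 genes, 9 Sprr2 genes, Sprr3 and Sprr4, 14 Lce1 genes, 6 Lce3 genes, Lce6a and 9 genes of other families. The 2 remaining rows, Sprr2a1 and Sprr2a2, had 0 reads in every library. Messenger RNA came from whole mouse thymus, in 3 libraries from K5-rtTA:TetO-RANKL mice (RANKL libraries) and 3 from control mice. The keratin 5 (K5) promoter drives the doxycycline-responsive activator rtTA in basal and medullary epithelial cells, and also in other keratin 5 tissues, and the activator switches on RANKL, a cytokine of the TNF family encoded by Tnfsf11. Controls were described as monogenic, that is, carrying 1 of the transgenes, which is not named, and both groups received doxycycline in food and water. The schedule is given as 1 week from 8 weeks of age in the design text and as 2 weeks from 9 weeks of age in the treatment protocol. The labels do not state whether each library is a different animal, and they leave out sex, so a p-value here reflects only how these libraries spread, which may be technical.

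The cornified envelope is the protein shell that replaces the plasma membrane of dying keratinocytes in stratified squamous epithelium such as epidermis and oesophagus. Its precursors are small proteins rich in glutamine, lysine, proline or glycine that transglutaminases join by isopeptide bonds, first on a scaffold of involucrin, envoplakin and periplakin, then with loricrin, small proline-rich (Sprr) and late cornified envelope (Lce) proteins. In the thymus, keratinised cells of this kind are known from Hassall's corpuscles of the medulla, which form from late medullary epithelial cells and are small in mice.

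The RANKL libraries held 18254870, 25357060 and 20465867 counted reads, and the control libraries 19771112, 18654395 and 21453466. Values are given as CPM, the counts scaled to library size with TMM factors, which correct totals for composition, and 3 reads in a library were worth 0.122 to 0.161 CPM in RANKL libraries and 0.143 to 0.158 CPM in control libraries. Tnfsf11 itself ran from 2390 to 4812 CPM in the RANKL libraries and from 6.01 to 8.89 CPM in the controls, native and transgenic transcripts not being separated. Of 16096 genes tested with edgeR's quasi-likelihood test, 63.4% passed an adjusted p of 0.05, with 33.8% higher and 29.6% lower in RANKL libraries. The 6 thymocyte markers Cd3e, Cd4, Cd8a, Rag1, Dntt and Ptcra together reached 177 to 749.5 CPM in RANKL libraries, against 7376 to 8559 CPM in controls, and all 6 were lower. Of 7 thymic epithelial markers, Foxn1, Epcam, Krt8, Krt5 and Aire were higher in RANKL libraries and the cortical genes Psmb11 and Prss16 were lower. The calls of Foxn1 and Krt8 were lost with control replicate 2 left out (edgeR adjusted p = 0.0769 and 0.159) or control replicate 3 left out (0.0664 and 0.0939), and that of Krt8 also without RANKL replicate 1 (0.11) or 3 (0.0593), without a low-count filter (0.0792) and with a block for the number range in the sample titles (0.0905). In RNA of a whole organ, fewer cells of a type and less RNA per cell cannot be told apart, and the part of these shifts in the values of the envelope genes was not tested.

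Transcripts of the envelope precursors were rare in control thymus and prominent in RANKL thymus. The 43 genes together took 0.226%, 0.665% and 0.289% of all reads in the RANKL libraries, against 0.00451%, 0.00531% and 0.00387% in the controls. Summed, they stood at 2224, 6853 and 2791 CPM in RANKL libraries and at 47.0, 51.1 and 39.7 CPM in controls. Every RANKL library held reads of all 43 genes, while each control library held reads of 35. In all 43 genes the lowest RANKL library lay above the highest control library, a pattern seen with RANKL higher in 36.1% of the 16096 genes tested. That share is over tested genes, and not all of the 43 were tested. Only 7 of the 43 reached the level of the low-count filter in each control library, and nothing is read from the count of the others.

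The low-count filter kept 40 of the 43 genes, and all 40 were called higher in RANKL libraries, where 33.8% of all tested genes were. Only 7 of them, Calm4, Sprr2b, Sprr1a, Rptn, Cnfn, Sbsn and Krtdap, reached the filter's level in each control library. The other 33 passed through their RANKL values and so had to differ, and nothing is read from their count. The 7 were all at least 4-fold higher, as were 10.5% of the 14136 genes that reach the level in each control library. Fitted log2 fold changes ran from 3.19 for Lce1j to 10.18 for Sprr2g with a median of 6.16, or 6.03 with Lce1l, the gene without control reads, set at its lower bound, beside a median of -0.02 over all tested genes. Without a low-count filter all 43 were tested and called higher, with the largest edgeR adjusted p of 0.0267 for Sprr3, and 28.6% of 20797 genes were higher in that fit.

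**Figure D1:**
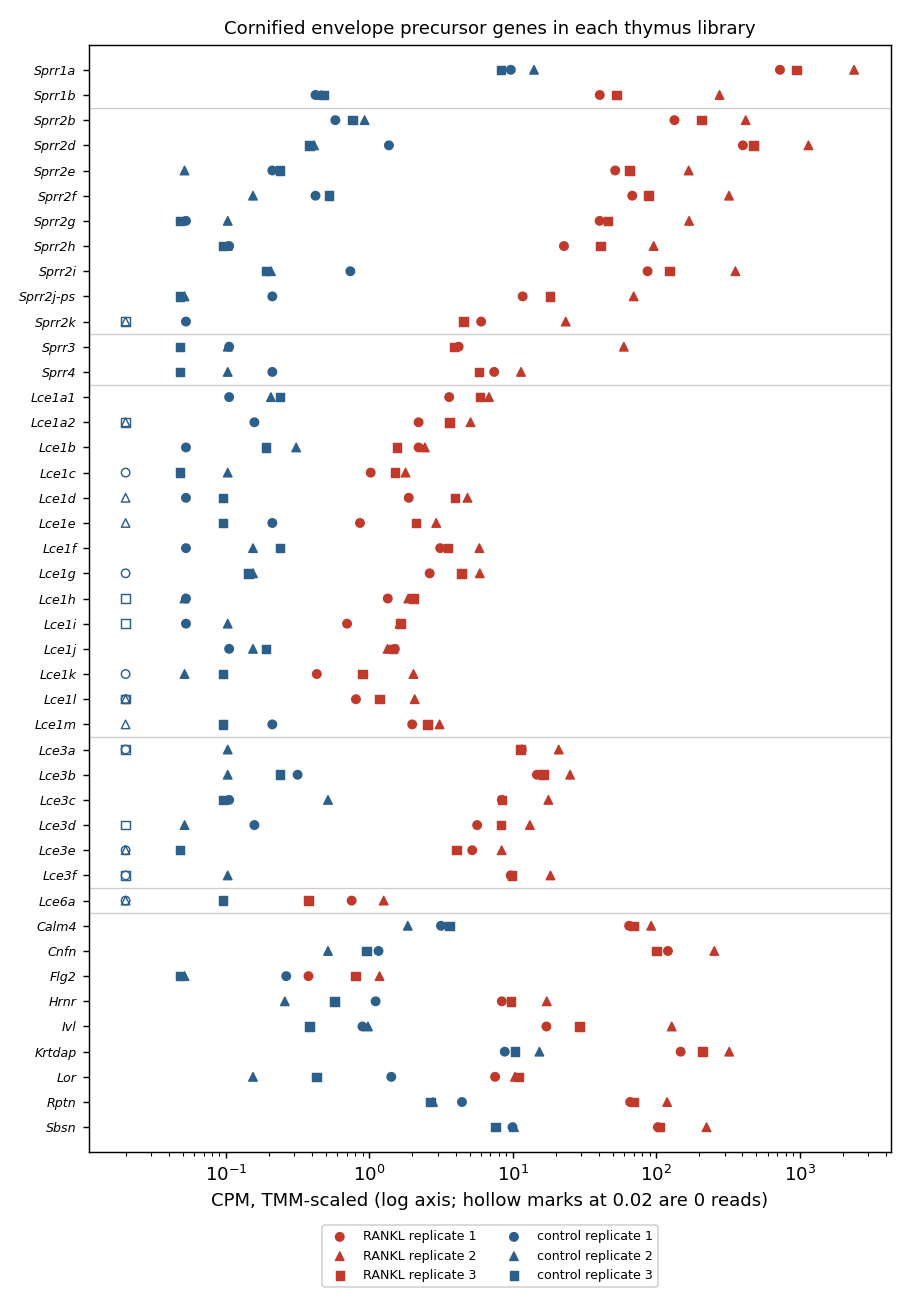
CPM of each of the 43 cornified envelope precursor genes in the 3 RANKL and the 3 control libraries, on a log axis, 1 point per library, with 0 reads drawn as hollow marks. In every gene the RANKL points lie to the right of the control points, and Sprr1a reaches 2399 CPM in RANKL replicate 2.

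The Sprr1 genes encode proline-rich crosslinking proteins that bridge other envelope proteins. Sprr1a (Entrez gene 20753, chr3:92483954-92485881 in GRCm38) had the highest level per kilobase of the 43 genes in RANKL thymus, and it is shown here because its coding sequence displays the repeat on which the protein is built. Of its 432 coding bases, read from the GENCODE M21 transcript, bases 141 to 363 from the start codon are printed. Capitals mark 9 matches to a pattern of 17 bases that follow each other every 24 bases, with CC, AAGG, CC and GAGCC parted by 1, 2 and 1 free bases.
Sprr1a: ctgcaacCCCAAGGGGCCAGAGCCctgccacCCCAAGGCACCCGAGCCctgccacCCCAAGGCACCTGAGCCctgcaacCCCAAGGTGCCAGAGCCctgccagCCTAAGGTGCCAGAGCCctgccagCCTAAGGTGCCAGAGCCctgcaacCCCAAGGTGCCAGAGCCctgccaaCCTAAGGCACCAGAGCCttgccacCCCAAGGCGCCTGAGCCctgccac
The same pattern occurs 9 times in the 459 coding bases of Sprr1b and in none of the coding sequences of the other Sprr genes with reads. Sprr1a and Sprr1b are 78.4% identical over their aligned coding sequences and share no stretch of 50 bases with any other transcript, so reads of that length can be told apart.

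Sprr1a stood at 730.0, 2399 and 955 CPM in the RANKL libraries and at 9.70, 14.1 and 8.27 CPM in the controls. Its log2 fold change was 6.99 ± 0.53 (SE, n = 3 per group; edgeR adjusted p = 9.4e-06), or 127.5-fold, and 6.31 without RANKL replicate 2. The groups lay far apart, and replicate 2 was the highest of the RANKL libraries. Sprr1b (Entrez gene 20754) had 40.5, 277 and 53.1 CPM in RANKL libraries, against 0.422, 0.464 and 0.478 CPM in controls. This was a log2 fold change of 8.07 ± 0.92 (edgeR adjusted p = 8.58e-05) and 6.67 without RANKL replicate 2. The controls were nearly level, and almost all of the spread was on the RANKL side.

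Sprr2 genes encode shorter proteins of the same kind, found in several squamous and simple epithelia, and stand side by side on chromosome 3. The first 90 coding bases are printed for Sprr2d, for Sprr2i, Sprr2e and Sprr2b, the copies with reads that differ from it at the fewest of these bases, and for Sprr2a1. Capitals mark bases that differ from Sprr2d, the copy with the highest level, at the same position counted from the start codon, without gaps.
Sprr2d: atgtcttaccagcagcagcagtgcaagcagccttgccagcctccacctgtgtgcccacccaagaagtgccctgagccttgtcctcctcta
Sprr2i: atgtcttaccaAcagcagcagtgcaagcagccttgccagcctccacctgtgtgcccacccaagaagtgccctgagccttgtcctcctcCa
Sprr2e: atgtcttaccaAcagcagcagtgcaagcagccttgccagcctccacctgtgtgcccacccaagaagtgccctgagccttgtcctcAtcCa
Sprr2b: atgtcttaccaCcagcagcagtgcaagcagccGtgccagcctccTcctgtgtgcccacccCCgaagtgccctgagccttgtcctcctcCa
Sprr2a1: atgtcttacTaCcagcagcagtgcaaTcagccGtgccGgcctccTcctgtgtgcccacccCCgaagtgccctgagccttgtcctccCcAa
Sprr2i differed from Sprr2d at 2 of these bases, Sprr2e at 3, Sprr2b at 6 and Sprr2a1 at 10. Of the copies with reads not printed, Sprr2h differed at 9, Sprr2f at 17, Sprr2j-ps at 27, Sprr2k at 31 and Sprr2g at 33. Without gaps, an inserted or lost base shifts all later ones, so these counts do not rank the copies over their whole coding sequence. Aligned with gaps over that length, Sprr2f and Sprr2g were 80.8% and 76.8% identical to Sprr2d, and Sprr2b 74.4%. Over the whole coding sequence, pairs of the 9 Sprr2 genes with reads were 53.4% to 96.9% identical, with a median of 68.1% over 36 pairs. At most 1.16% of the 100-base stretches of any of these 9 transcripts occurred in another gene, and at most 13.7% of the 50-base stretches. Sprr2a1 and Sprr2a2, by contrast, have the same coding sequence and share 92.5% and 92.8% of their 100-base stretches with other genes, chiefly each other. Their 0 reads are not read as absence, since reads of such copies can be lost in counting, and no source used here gives the rule applied to them.

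All 9 Sprr2 genes were called higher in RANKL libraries. Sprr2d (Entrez gene 20758, chr3:92339140-92340873) stood at 403, 1154 and 476 CPM in RANKL libraries and at 1.37, 0.412 and 0.382 CPM in controls. edgeR gave a log2 fold change of 9.88 ± 0.66 (adjusted p = 6.39e-06), 9.27 without RANKL replicate 2 and 10.70 without control replicate 1. Per kilobase, Sprr2d was second to Sprr1a in RANKL thymus, and in the controls it rested on 26, 8 and 8 reads. Sprr2b (Entrez gene 20756) had 134, 421 and 208 CPM in RANKL libraries, against 0.580, 0.928 and 0.765 CPM in controls. The change was 8.38 ± 0.52 on the log2 scale (edgeR adjusted p = 4.61e-06). Sprr2b was the only Sprr2 gene at the filter's level in each control library, so its call does not rest on the RANKL values having carried it through the filter. Sprr2i (Entrez gene 20763) had 87.2, 357 and 124 CPM in RANKL libraries, against 0.738, 0.206 and 0.191 CPM in controls. The log2 fold change of Sprr2i was 8.97 ± 0.75 (edgeR adjusted p = 1.85e-05), 8.14 without RANKL replicate 2 and 9.84 without control replicate 1.

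The other 6 Sprr2 genes, Sprr2e, Sprr2f, Sprr2g, Sprr2h, Sprr2j-ps and Sprr2k, were likewise highest in replicate 2 among the RANKL libraries. Sprr2g had the largest fitted change of all tested envelope genes, with 40.4, 169.7 and 46.0 CPM in RANKL libraries and 1, 2 and 1 reads in the controls. The log2 fold change of Sprr2g was 10.18 ± 0.88 (edgeR adjusted p = 2.13e-05), 9.20 without RANKL replicate 2. With so few control reads the size of that change is loosely fixed. Without RANKL replicate 2 the log2 fold change of Sprr2e was 8.40 in place of 9.09, that of Sprr2f 7.71 in place of 8.73 and that of Sprr2h 8.22 in place of 8.96. Sprr2g and Sprr2j-ps are both annotated by RefSeq as transcribed pseudogenes. Sprr2j-ps was at 8.27, or 7.13 without RANKL replicate 2 and 9.21 without control replicate 1. Sprr2k had 112, 576 and 96 reads in RANKL libraries and 1 read over the 3 controls. Its summed CPM gave a ratio of 722 (95% counting interval 129 to 28600), and its fitted log2 change of 8.95 became 7.84 without RANKL replicate 2 and 10.89 without control replicate 1.

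Sprr3, a small proline-rich protein abundant in oral and oesophageal epithelium, was the gene whose RANKL libraries agreed least. It had 4.20, 59.5 and 3.91 CPM in RANKL libraries, against 2, 2 and 1 reads in the controls. The fit gave a log2 fold change of 7.97 ± 1.45 (edgeR adjusted p = 0.00121), and 5.49 without RANKL replicate 2. The other RANKL libraries still lay above every control. Sprr4 had 7.43, 11.4 and 5.80 CPM in RANKL libraries, against 4, 2 and 1 reads in the controls, with a log2 fold change of 6.05 ± 0.53 (edgeR adjusted p = 1.79e-05), or 6.66 without control replicate 1.

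Ivl encodes involucrin, an early glutamine-rich scaffold protein of the envelope (Entrez gene 16447, chr3:92570899-92573790). It had 17.2, 128 and 29.3 CPM in RANKL libraries, against 0.896, 0.979 and 0.382 CPM in controls. Its log2 fold change was 6.28 ± 0.85 (edgeR adjusted p = 0.000231), and 4.96 without RANKL replicate 2. Replicate 2 thus carried much of the size of this change, while each of the other RANKL libraries was also far above the controls.

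Lor encodes loricrin, the glycine-rich protein that makes up most of the envelope in mature epidermis (Entrez gene 16939, chr3:92080271-92083142). It had 7.54, 10.4 and 11 CPM in RANKL libraries, against 1.42, 0.155 and 0.430 CPM in controls. Its log2 fold change was 3.85 ± 0.60 (edgeR adjusted p = 0.000408), and 4.98 without control replicate 1. Lor was therefore among the smaller changes, and replicate 2 was not its highest RANKL library. Per kilobase of transcript, loricrin mRNA reached 5.42 ± 1.04 CPM in RANKL libraries (SD, n = 3), below involucrin with 30.3 ± 31.8 and far below Sprr1a with 1689 ± 1124.

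Lce genes encode small cysteine-rich and glycine-rich proteins added late to the envelope. The 14 Lce1 genes, typical of epidermis, were present at a low level, together 24.3, 47.7 and 36.4 CPM in RANKL libraries and 1.05, 1.29 and 1.43 CPM in controls. The filter kept 13 of them, Lce1k being the exception, and those 13 were called higher with a median log2 fold change of 4.74, and a range of 3.19 to 6.01 besides Lce1l. Lce1a1, the highest per kilobase, had 3.61, 6.83 and 5.94 CPM in RANKL libraries, against 2, 4 and 5 reads in the controls, and a log2 fold change of 4.84 ± 0.48 (edgeR adjusted p = 3.26e-05). Lce1g had 2.64, 5.90 and 4.38 CPM in RANKL libraries, against 0, 3 and 3 reads in controls, and a log2 fold change of 5.34 ± 0.67 (edgeR adjusted p = 0.000116). Lce1f had 3.12, 5.86 and 3.53 CPM in RANKL libraries, against 1, 3 and 5 reads in controls, and a log2 fold change of 4.74 ± 0.55 (edgeR adjusted p = 7.5e-05). These genes were clearly detected in RANKL thymus and at the edge of detection in controls.

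Several Lce1 genes had too few control reads for a firm ratio. Lce1l had 15, 51 and 25 reads in RANKL libraries and 0 in the controls, and against 3 reads over the whole control group it was at least 27.9-fold higher. Lce1a2 had 41, 125 and 77 reads in RANKL libraries and 3, 0 and 0 in controls, a ratio of 74.6 (interval 25.2 to 364). Its fitted log2 change of 6.01 became 9.25 without control replicate 1, which held all of the control reads, and 5.42 without control replicate 3. The ratios of Lce1c, Lce1d, Lce1h and Lce1i, with 2 or 3 control reads each, lay between 27.0 and 73.1. Lce1k, not tested under the filter, had 8, 50 and 19 reads in RANKL libraries and 0, 1 and 2 in controls, a ratio of 23.6 (interval 7.79 to 117). The remaining Lce1b, Lce1e, Lce1j and Lce1m had log2 fold changes of 3.44, 4.21, 3.19 and 4.57. Leaving out 1 control library moved several of these by more than 1.5-fold, to 5.53 for Lce1c without control replicate 2, 6.79 for Lce1d without control replicate 3, 5.15 for Lce1e and 5.51 for Lce1m without control replicate 1, and 5.40 for Lce1i without control replicate 2.

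The Lce3 genes, which in human skin are known for induction after injury of the barrier and in psoriasis, formed a cluster of 6 very similar copies. Their coding sequences were 94.6% to 99.3% identical over 15 pairs, and 24.1% to 43% of the 100-base stretches of Lce3c, Lce3d, Lce3e and Lce3f occurred in another gene, so reads of these 4 genes may have been shared or lost between them. Together the 6 genes stood at 55.3, 104 and 58.4 CPM in RANKL libraries and at 0.580, 0.876 and 0.382 CPM in controls. All 6 were called higher, with a median log2 fold change of 7.47. As log2 ratios of mean CPM, the median gene by gene was 7.77, and the ratio was 6.89 with the copies summed. Lce3b (Entrez gene 66344), which shares 1.08% of its 100-base stretches, had 14.8, 25.1 and 16.4 CPM in RANKL libraries, against 6, 2 and 5 reads in controls. That made a log2 fold change of 6.38 ± 0.42 (edgeR adjusted p = 5.83e-06). Its standard error was the smallest of the 6. Lce3a had 215, 515 and 240 reads in RANKL libraries and 0, 2 and 0 in controls, a ratio of 446.7 (interval 123 to 3690), and its fitted log2 change of 8.52 became 11.24 without control replicate 2. Lce3f had 180, 451 and 210 reads in RANKL libraries and 0, 2 and 0 in controls, a ratio of 387 (interval 107 to 3200), and a fitted log2 change of 8.31 that became 11.04 without control replicate 2. The fitted changes of Lce3c, Lce3d and Lce3e were 5.57, 6.94 and 8.01, and leaving out 1 control library brought them to 6.74 without replicate 2, 8.18 without replicate 1 and 9.92 without replicate 3. Lce3d was at 6.34 without control replicate 3. Lce6a, a lone relative, was barely detected, with 14, 31 and 8 reads in RANKL libraries and 0, 0 and 2 in controls, a ratio of 24.4 (interval 6.43 to 207).

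Rptn (repetin), Hrnr (hornerin) and Flg2 (filaggrin 2) are long repeat proteins of the fused S100 type that bind calcium and enter the envelope or the keratin matrix. Rptn (Entrez gene 20129, chr3:93393699-93399442) had 65.9, 119 and 70.3 CPM in RANKL libraries, against 4.43, 2.78 and 2.68 CPM in controls, and its log2 fold change was 4.69 ± 0.32 (edgeR adjusted p = 6.25e-06). Hrnr had 8.40, 17.3 and 9.71 CPM in RANKL libraries, against 1.11, 0.258 and 0.573 CPM in controls, with a log2 fold change of 4.19 ± 0.51 (edgeR adjusted p = 9.72e-05), or 4.78 without control replicate 1. Flg2 hardly appeared, with 7, 29 and 17 reads in RANKL libraries and 5, 1 and 1 in controls. It was below the filter, and in the fit without a filter its edgeR adjusted p was 0.00945, with a ratio of 6.97 (interval 3.16 to 18.2). Repetin is known from the filiform papillae of the tongue and the forestomach as well as from epidermis. Per kilobase it stood at 20.5 ± 7.14 CPM in RANKL libraries (SD, n = 3), hornerin at 1.05 ± 0.43 and filaggrin 2 at 0.112 ± 0.057. Filaggrin itself (Flg) is not analysed here.

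Krtdap, Sbsn, Calm4 and Cnfn lie outside the chromosome 3 cluster. Krtdap, a secreted protein of suprabasal keratinocytes (Entrez gene 64661, chr7:30787905-30791089), had 148, 323 and 210.0 CPM in RANKL libraries, against 8.80, 15.4 and 10.4 CPM in controls, and its log2 fold change was 4.30 ± 0.34 (edgeR adjusted p = 1.06e-05). Sbsn, suprabasin, another product of suprabasal layers, had 103, 225 and 106 CPM in RANKL libraries, against 9.96, 10.2 and 7.60 CPM in controls, with a log2 fold change of 3.97 ± 0.33 (edgeR adjusted p = 1.41e-05). Both were already measurable in every control library at several CPM, as was Sprr1a. Of the 100-base stretches of Sbsn, 8.48% also occur in the transcript of Tmem147os, so some of its reads may belong there. Calm4, a calmodulin-like calcium-binding protein of skin (Entrez gene 80796, chr13:3837757-3838671), had 64.8, 92.3 and 69.4 CPM in RANKL libraries, against 3.16, 1.86 and 3.63 CPM in controls. Its log2 fold change of 4.71 ± 0.28 (edgeR adjusted p = 4.55e-06) had the smallest standard error of the 40 tested genes. Cnfn encodes cornifelin, a cysteine-rich envelope component (Entrez gene 72383, chr7:25367616-25369724). It had 121, 254 and 101 CPM in RANKL libraries, against 1.16, 0.515 and 0.956 CPM in controls, and its log2 fold change was 7.49 ± 0.47 (edgeR adjusted p = 5.14e-06). Its fitted change was the largest of the 4 genes outside chromosome 3.

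The make-up of the envelope transcripts, as shares of reads not corrected for transcript length, did not overlap between the groups for the main families. Sprr2 genes made up 37.1%, 40.6% and 38.4% of the summed CPM of the 43 genes in RANKL libraries, against 7.96%, 3.94% and 5.78% in controls. Sprr1 genes made up 34.7%, 39.1% and 36.1% in RANKL libraries, against 21.5%, 28.5% and 22% in controls. The 9 genes of other families took 24.1%, 17.1% and 21.8% in RANKL libraries, against 66.4%, 63.0% and 67.1% in controls. The Sprr2 and Sprr1 shares of the 3 RANKL libraries thus lay close together although the summed levels of the 43 genes did not. Sprr3 and Sprr4 together held 0.523%, 1.04% and 0.348% in RANKL libraries, and 0.673%, 0.404% and 0.241% in controls. Lce1 genes held 0.696% to 1.30% in RANKL libraries and 2.24% to 3.61% in controls, and Lce3 genes 1.51% to 2.49% in RANKL libraries and 0.963% to 1.72% in controls.

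**Figure D2:**
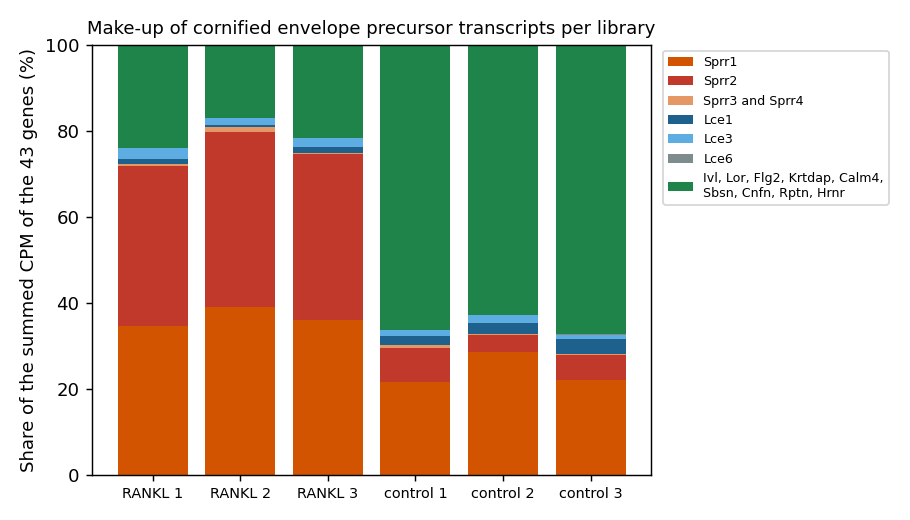
Share of the summed CPM of the 43 genes held by each family, in percent, 1 bar per library, with the RANKL libraries on the left and the control libraries on the right. Sprr1 and Sprr2 fill most of each RANKL bar, and the genes of other families 63.0% to 67.1% of each control bar.

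Set on a scale of CPM per kilobase of the longest coding transcript, the order of the genes also differed. In RANKL libraries Sprr1a led with 1689 ± 1124 (SD, n = 3), followed by Sprr2d with 994.7 ± 608, Krtdap with 483 ± 189 and Sprr2b with 324.5 ± 190.3. These 4 genes kept that order among themselves in each RANKL library, and replicate 2 was the highest for each. Sprr2b, at 171.2 in RANKL replicate 1, lay below Cnfn at 173.1, and at 537.4 in replicate 2 below Sprr2i at 578.7. In controls Krtdap led with 24.5 ± 7.29, followed by Sprr1a with 13.2 ± 3.75, Sbsn with 4.17 ± 0.65 and Calm4 with 3.14 ± 1.00, and Calm4 lay above Sbsn in control replicate 3. Sprr2d ranked 6 in controls, and Sprr2g ranked 10 in RANKL libraries and 28 in controls.

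Among the RANKL libraries, replicate 2 was the highest for 39 of the 43 genes, as it was for 43.2% of the 5437 genes called higher. The exceptions were Lor, Lce1h and Lce1i, highest in replicate 3, and Lce1j, highest in replicate 1. The ratio of replicate 2 to the mean of replicates 1 and 3 had a median of 1.91 over the 43 genes. It was largest for Sprr3 at 14.7, Sprr1b at 5.92 and Ivl at 5.53, and ran from 2.47 to 4.66 in the Sprr2 genes. At the other end stood Lce1j at 0.904, Lce1h at 1.11, Lor at 1.12 and Lce1b at 1.30. The Lce1 genes had a median ratio of 1.54 and the Lce3 genes of 1.85. For comparison, the ratio was 1.30 for the basal keratin Krt5, 1.14 for the epithelial regulator Trp63 and 0.823 for Krt10, a keratin of the first suprabasal layer in epidermis. Over the 8 genes of basal epithelium listed below it ran from 1 for Dst to 1.81 for Krt15, with 1.62 for Krt14. Over the 7 analysed genes for suprabasal keratins and filaggrin processing it ran from 0.823 for Krt10 to 1.75 for Asprv1. It was 2.93 for the lipid transporter gene Abca12, 2.90 for the transglutaminase gene Tgm1, 2.81 for Ppl, 2.74 for Evpl and 2.57 for the mucosal keratin Krt13. Other genes of squamous layers had ratios below 1, with 0.531 for Krt4, 0.369 for Rhcg, 0.693 for Dsg1a and 0.928 for Krt77.

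**Figure D3:**
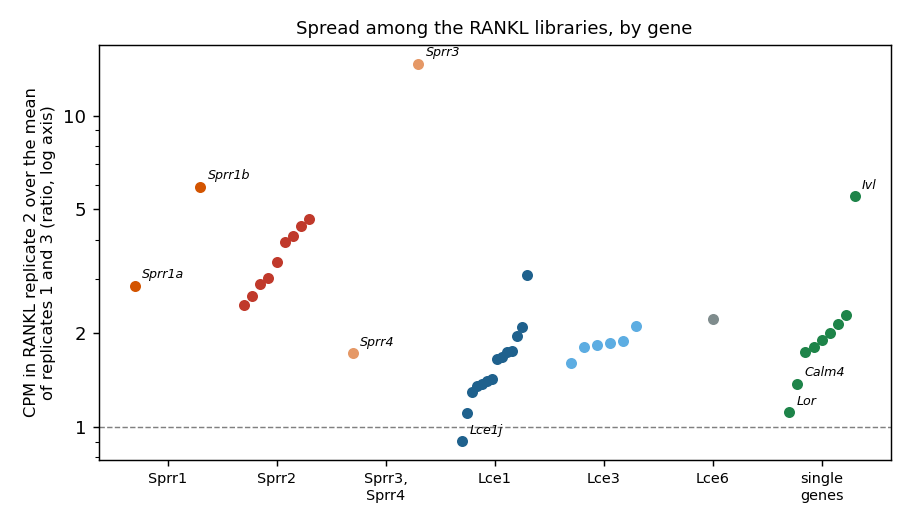
Ratio of the CPM in RANKL replicate 2 to the mean CPM of RANKL replicates 1 and 3, on a log axis, 1 point per gene, grouped by family. Sprr3 at 14.7, Sprr1b at 5.92 and Ivl at 5.53 stand highest, and Lce1j at 0.904 stands below 1.

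Of the 43 genes, 39 lie on chromosome 3 within 1319 kb, between Lor and Rptn (chr3:92080271-93399442 in GRCm38). This interval is part of the epidermal differentiation complex, and its ends are set here by the outermost envelope genes. The table places 10 further rows between them, of which 8 had reads and 6 passed the filter, and all 6 were called higher, beside 33.8% of all tested genes. Of these 6, 1, Crct1, reached the filter's level in each control library, and nothing is read from the count of the other 5, which passed through their RANKL values. Prr9, a proline-rich protein gene, had 62.3, 251 and 68.1 CPM in RANKL libraries, against 0.264, 1.03 and 0.239 CPM in controls, with a log2 fold change of 7.95 ± 0.79 (edgeR adjusted p = 4.02e-05), 6.99 without RANKL replicate 2 and 8.93 without control replicate 2. Crct1, a cysteine-rich protein gene, had 70.8, 131 and 53.6 CPM in RANKL libraries, against 1.16, 0.618 and 0.908 CPM in controls, with a log2 fold change of 6.56 ± 0.42 (edgeR adjusted p = 5.47e-06). Kprp, a keratinocyte proline-rich protein gene, changed by 6.30 ± 0.65 on the log2 scale, 2310050C09Rik by 4.82 ± 0.58, Crnn by 4.41 ± 0.50 and Gm4858 by 3.16 ± 0.69, all past the threshold in edgeR. Leaving out 1 library brought Kprp to 5.66 without RANKL replicate 2, Crnn to 5.09 without control replicate 1, and Gm4858 to 2.57 without control replicate 2 and 4.05 without control replicate 3. The 2 untested rows with reads, Lelp1 and Smcp, never passed 0.407 CPM.

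The flanks of 500 kb on each side, chosen after values were seen, held 5 tested genes. Pglyrp3 before the interval and Tchh, S100a11 and Tdpoz4 after it were called higher, with log2 fold changes of 5.46, 5.74, 2.51 and 4.49. Pglyrp3 and Tdpoz4 passed the filter through their RANKL values. Without RANKL replicate 2, Pglyrp3 was at 4.75 and Tchh at 5.09, and without control replicate 3 Pglyrp3 was at 4.85. Tdpoz4 was at 5.18 without control replicate 1. S100a10, a broadly expressed annexin partner, stood at 203, 269 and 204 CPM in RANKL libraries and at 165, 193 and 239 CPM in controls, and its change of 0.18 ± 0.19 did not pass the threshold (edgeR adjusted p = 0.445). Its groups overlapped, unlike those of every envelope gene.

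**Figure D4:**
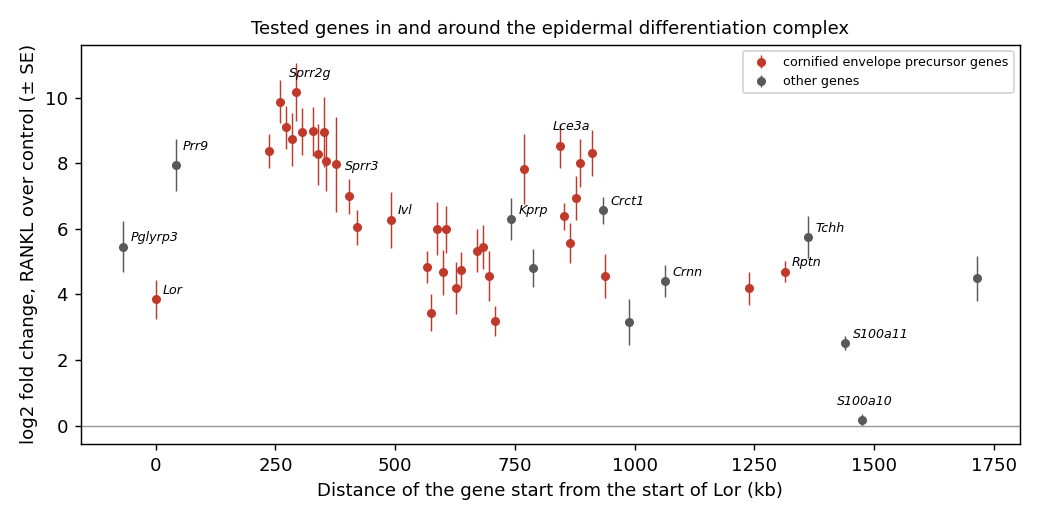
Log2 fold change with its SE of each tested gene in the interval from Lor to Rptn and its flanks, against the distance of its start from the start of Lor in kb, with envelope genes and other genes in different colours. Sprr2g at 10.18 is the highest point, and S100a10 at 0.18 after Rptn lies near the line of no change.

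Promoter sequences from RefSeq on GRCm38.p6 were matched to 40 of the 43 genes and searched on both strands over the 250 bases before the annotated start. The AP-1 motif TGANTCA, bound by Fos and Jun proteins, stood in 15 of 40 (37.5%), against 6.75% of all 32851 promoters of that length. It was in both Sprr1 promoters, in all 7 Sprr2 promoters with a sequence, and in those of Lor, Ivl, Flg2, Rptn, Sbsn and Krtdap. None of the 13 Lce1 and 6 Lce3 promoters held it, nor did those of Lce6a, Sprr3, Sprr4, Cnfn, Calm4 and Hrnr. The TATA box letters TATAAA stood in 47.5% of the 40, against 12.4% of all promoters, and the octamer ATTTGCAT in the 7 Sprr2 promoters and no other of the 40, against 1.60% of all. The CACCC box was in 47.5% of the 40 and 52.0% of all promoters. An NF-kB motif, GGGA and TTCC with 2 free bases between, was in none of the 40 and in 1.21% of all promoters. A STAT motif, TTC and GAA with 3 free bases between, was in 1 of the 40 and 7.02% of all, and its form with 4 free bases in 0 of the 40 and 5.85% of all. An interferon-response motif, GAAA and GAAA with 2 free bases between, was in 0 of the 40 and 2.98% of all. Copies within a family share their promoter by descent, so these counts are not independent, and a match is a description of the letters only.

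The 200 bases before the start are printed for 7 genes to set promoters with the AP-1 letters beside promoters without them. Capitals mark the AP-1, TATA box and octamer letters given above, and each sequence reads towards the gene.
Sprr1a (chr3:92485882-92486081, minus strand): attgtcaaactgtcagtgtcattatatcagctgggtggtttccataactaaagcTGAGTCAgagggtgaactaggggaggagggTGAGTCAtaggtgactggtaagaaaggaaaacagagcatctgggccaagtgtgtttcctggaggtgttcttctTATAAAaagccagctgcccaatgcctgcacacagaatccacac
Sprr2d (chr3:92338940-92339139, plus strand): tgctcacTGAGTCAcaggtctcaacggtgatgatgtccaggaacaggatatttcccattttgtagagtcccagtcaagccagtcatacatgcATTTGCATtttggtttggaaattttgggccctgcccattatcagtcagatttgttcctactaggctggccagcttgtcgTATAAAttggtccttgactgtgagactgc
Sprr2b (chr3:92316505-92316704, plus strand): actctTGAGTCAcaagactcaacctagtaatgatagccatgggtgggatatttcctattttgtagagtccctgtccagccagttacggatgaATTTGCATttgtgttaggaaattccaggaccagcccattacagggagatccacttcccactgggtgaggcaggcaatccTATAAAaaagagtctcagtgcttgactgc
Lor (chr3:92083143-92083342, minus strand): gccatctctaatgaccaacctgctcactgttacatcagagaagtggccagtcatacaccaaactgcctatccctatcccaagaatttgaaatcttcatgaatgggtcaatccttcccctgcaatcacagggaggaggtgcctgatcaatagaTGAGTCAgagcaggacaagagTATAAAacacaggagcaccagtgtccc
Krtdap (chr7:30787705-30787904, plus strand): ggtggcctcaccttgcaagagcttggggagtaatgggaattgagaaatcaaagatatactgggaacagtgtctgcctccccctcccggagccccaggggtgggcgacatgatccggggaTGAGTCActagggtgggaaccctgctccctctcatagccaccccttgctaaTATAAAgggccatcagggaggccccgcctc
Lce1a1 (chr3:92648308-92648507, minus strand): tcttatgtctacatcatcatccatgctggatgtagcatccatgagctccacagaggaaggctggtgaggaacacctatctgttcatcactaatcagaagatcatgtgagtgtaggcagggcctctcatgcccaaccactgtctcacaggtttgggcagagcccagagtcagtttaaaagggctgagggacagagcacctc
Lce3b (chr3:92932779-92932978, plus strand): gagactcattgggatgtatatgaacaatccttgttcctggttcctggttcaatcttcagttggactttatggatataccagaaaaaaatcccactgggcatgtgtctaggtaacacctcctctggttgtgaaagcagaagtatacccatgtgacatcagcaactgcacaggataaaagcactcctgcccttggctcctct
Sprr1a carries the AP-1 letters in 2 places, and Sprr2d and Sprr2b once each at nearly the same distance from the start. Lor and Krtdap also carry them, and Lce1a1 and Lce3b do not. A relation of these letters to the levels of the genes was not tested.

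The enzymes and scaffolds that assemble the envelope were higher along with its precursors. Of 11 crosslinking and junction genes 11 were called higher, where 33.8% of all tested genes were, with a median log2 fold change of 3.92, and 10 of the 11 reached the filter's level in each control library. Tgm1, the membrane-bound transglutaminase of keratinocytes, had 76.3, 278 and 116 CPM in RANKL libraries, against 13.3, 10.3 and 11.3 CPM in controls, a log2 fold change of 3.75 ± 0.44 (edgeR adjusted p = 9.14e-05), or 3.06 without RANKL replicate 2. Tgm3 changed by 4.46 ± 0.48 and Tgm5 by 3.92 ± 0.70, the plakins Evpl by 3.18 ± 0.44 and Ppl by 4.36 ± 0.49, and corneodesmosin (Cdsn) by 5.23 ± 0.49. Tgm5 was at 5.62 without control replicate 2, and Evpl at 2.53 and Ppl at 3.69 without RANKL replicate 2. Desmoplakin (Dsp), plakophilin 1 (Pkp1) and plakoglobin (Jup), which other epithelia also use, changed by 2.44, 2.56 and 2.13. Those 3 genes stood at 37.1 to 251 CPM in the controls.

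Keratins mark which squamous layers are present. Of 7 analysed genes for suprabasal keratins and filaggrin processing, 6 were called higher, beside 33.8% of all tested genes. The median was 3.69 over the 7, and 5 of the 7 reached the filter's level in each control library. Krt10 had 129, 93.0 and 97.3 CPM in RANKL libraries, against 23.3, 11.3 and 11.8 CPM in controls, and Krt1 39.9, 60.9 and 61.0 CPM in RANKL libraries, against 5.90, 2.37 and 1.43 CPM in controls. The log2 fold change of Krt1 was 4.06, or 4.81 without control replicate 1. Asprv1, a protease that cuts filaggrin, changed by 5.20 ± 0.43 and Casp14, caspase 14, by 3.69 ± 0.37. Blmh, bleomycin hydrolase, with 89.2, 138 and 103 CPM in RANKL libraries and 108, 103 and 141 CPM in controls, did not pass the threshold (edgeR adjusted p = 0.711). All 9 analysed genes of mucosal and stressed squamous epithelium were higher, with a median of 4.57, but 6 of them, Krt4, Krt13, Krt6b, Crnn, Tmprss11a and Rhcg, passed the filter through their RANKL values, so nothing is read from that count. Krt6b, a keratin of wounded and oral epithelium, had 348, 755 and 391 CPM in RANKL libraries, against 0.791, 0.979 and 0.239 CPM in controls, a log2 fold change of 9.54 ± 0.52 (edgeR adjusted p = 3.64e-06). Krt6a changed by 8.00 ± 0.63 and Krt16 by 6.63 ± 0.44, and Krt4 and Krt13, the keratin pair of oesophagus, by 3.34 ± 0.67 and 4.57 ± 0.70. Krt6a was at 8.94 without control replicate 2. Krt4 was at 4.10 and Krt13 at 5.16 without control replicate 1, and Krt13 at 3.98 without RANKL replicate 2.

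Of 12 genes for barrier lipids 11 were higher, beside 33.8% of all tested genes, with a median of 4.13. The filter's level was reached in each control library by 9 of the 12, Abca12, Alox12b and Aloxe3 being the exceptions. Abca12, the lipid transporter of lamellar granules, changed by 6.26 ± 0.77, and Lipm, an epidermal lipase, by 4.80 ± 0.43. Abca12 was at 5.55 without RANKL replicate 2, 5.64 without control replicate 3 and 7.12 in limma-voom. Smpd1, acid sphingomyelinase, did not pass the threshold, with a log2 fold change of 0.05 ± 0.19 (edgeR adjusted p = 0.846). Of 16 transcription factors known in squamous differentiation, 15 were tested. All 15 were higher, with a median of 3.12, beside 33.8% of all tested genes. Grhl3, which controls barrier formation, had 38.4, 58.2 and 31.5 CPM in RANKL libraries, against 1.79, 1.13 and 1.19 CPM in controls, a log2 fold change of 4.96 ± 0.32 (edgeR adjusted p = 5.51e-06). Elf3 changed by 4.10 ± 0.26, Ehf by 3.70 ± 0.26, Cebpb by 3.40 ± 0.25 and Klf4 by 3.12 ± 0.29. Junb, a member of the AP-1 family, changed by 2.10 ± 0.17, and Fosl1 was below the filter at 0.269 to 0.660 CPM in RANKL libraries.

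Of 8 genes of basal epithelium 6 were higher, beside 33.8% of all tested genes, with a median of 2.56. Krt14 changed by 3.35 ± 0.25, Krt15 by 4.51 ± 0.32 and Krt5 by 2.59 ± 0.21. The integrin gene Itga6, at 0.31 ± 0.18 (edgeR adjusted p = 0.152), and the hemidesmosome gene Dst, at -0.31 ± 0.28 (edgeR adjusted p = 0.343), did not pass the threshold. Without control replicate 3, Dst was called lower, at -0.61 with an edgeR adjusted p of 0.0264. The list thus held both genes that changed and genes that did not pass, as did the suprabasal and barrier lipid lists, unlike the crosslinking list.

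**Figure D5:**
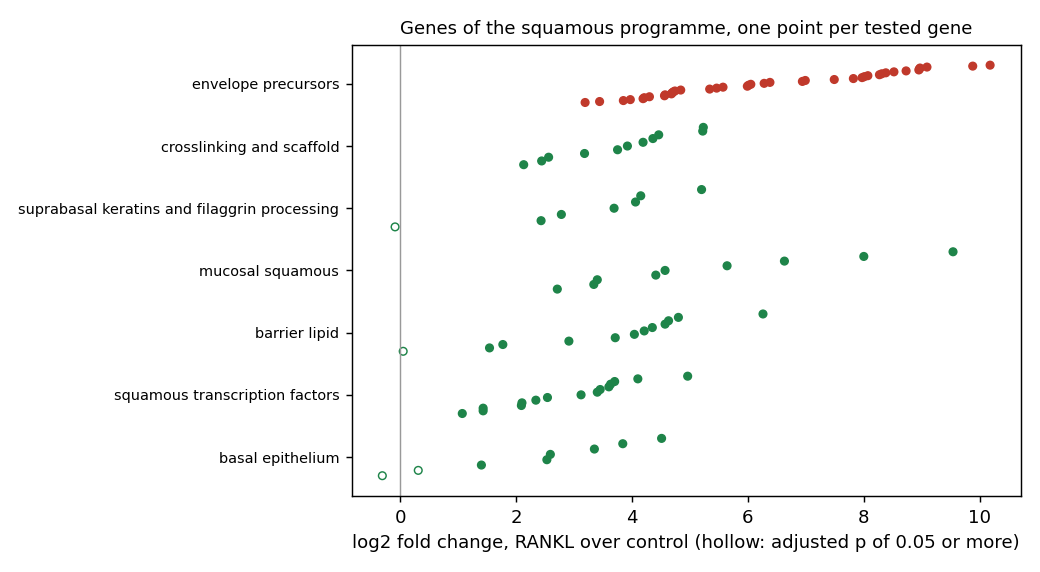
Log2 fold change, RANKL over control, of each tested gene of the envelope precursor families and of the 6 lists of squamous genes, 1 point per gene, with hollow points for an adjusted p of 0.05 or more. Sprr2g at 10.18 lies furthest to the right, and hollow points appear for Blmh, Smpd1, Itga6 and Dst.

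Markers of other tissues that a dissection or a transformed epithelium could hold moved in part with the envelope genes. All 8 hair follicle and nail markers were called higher, beside 33.8% of all tested genes, but only Krt71 and Tchh reached the filter's level in each control library, so nothing is read from that count. The 8 markers had summed levels of 156, 282 and 75.1 CPM in RANKL libraries, against 4.69, 5.62 and 2.68 CPM in controls. Trichohyalin (Tchh), which is also made in tongue papillae, accounted for 126, 243 and 52.0 CPM of the RANKL sums. The hair keratins Krt31, Krt33a and Krt35 and the keratin-associated Krtap3-1 lay between 0.613 and 5.16 CPM in RANKL libraries, and Krtap3-1 was at 0 reads in every control. Of 5 pigment cell markers, Pmel and Mlana were tested and did not pass the threshold (edgeR adjusted p = 0.253 and 0.295). Summed levels of the 5 were 5.49 to 11 CPM in RANKL libraries and 3.90 to 6.91 CPM in controls. Tyr had 1, 2 and 1 reads in RANKL libraries and 0 in every control. Of 4 markers of mouth glands, Bpifa2 was higher at 1.02 to 1.23 CPM in RANKL libraries, and Amy1 did not pass (edgeR adjusted p = 0.0717). In RANKL libraries Prb1 had 1, 1 and 4 reads and Smr2 3, 0 and 1, and both had 0 in every control. Amy1 was called lower in RANKL libraries without control replicate 1 (edgeR adjusted p = 0.0305), without control replicate 2 (0.0477), with the title-number block (0.0254), without a low-count filter (0.0406) and in DESeq2 (adjusted p = 0.0487). The sums of the 4 markers were 6.03 to 6.99 CPM in RANKL libraries and 6.43 to 16.1 CPM in controls. Of 3 parathyroid markers, Casr was higher and Pth was not called (edgeR adjusted p = 0.543). Gcm2 had 2, 4 and 7 reads in RANKL libraries and 0 in every control. Sums of the 3 were 5.42 to 12.5 CPM in RANKL libraries and 2.25 to 5.51 CPM in controls. The part of these cells in the levels of the envelope genes was not tested.

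Neutrophil markers also moved with the envelope genes. All 5 analysed markers were higher, beside 33.8% of all tested genes. Their sums were 1789, 3904 and 2075 CPM in RANKL libraries, against 41.5, 39.7 and 13.5 CPM in controls. The sum was highest in RANKL replicate 2, as it was for the envelope genes. S100a8 and S100a9, which keratinocytes of stressed epithelium also make, gave most of it, with 698, 1347 and 685 CPM for S100a8 in RANKL libraries. Retnlg had 69.8, 160 and 156 CPM in RANKL libraries, against 0.949, 1.39 and 0.573 CPM in controls, and was also highest in RANKL replicate 2. The log2 fold change of Retnlg was 7.05 ± 0.44 (edgeR adjusted p = 4.79e-06). Ngp and Camp, granule genes of developing neutrophils, were highest in RANKL replicate 3 instead, at 50.4 and 19.1 CPM, and without that library Ngp was no longer called (edgeR adjusted p = 0.0834), nor was it without a low-count filter (0.0934). The part of neutrophils in the envelope transcripts was not tested.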

How the data were processed

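Messenger RNA of whole thymus was measured in 3 RANKL and 3 control libraries, made with a stranded mRNA kit from 250 ng of RNA per the labels' protocols. The authors deposited unnormalised counts of reads per gene. Alignment to mm10 used STAR, per the submitters' processing notes. No source used here gives its version, the counting tool, the strand setting, the handling of reads with several matches or the read length, so near-identical, overlapping and antisense genes may share or lose reads.

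Genes were kept by filterByExpr (minimum count 10, a level of 0.497 CPM in 3 libraries), scaled by TMM and tested two-sided with the robust quasi-likelihood test of edgeR 4.0.16 (R 4.3.3). Benjamini-Hochberg adjustment ran over all 16096 genes kept, at a threshold of 0.05. Standard errors were derived from the F statistic. Replicate numbers follow accession order and imply no pairing. Counting intervals are exact binomial at 95%, and they and the floor of 3 reads cover counting error only. The fit was tested on simulated counts with known changes. Alternatives were RLE factors, totals alone, no low-count filter, a minimum of 10 reads in 3 libraries, no robust estimation, DESeq2 1.42.0, limma-voom (limma 3.58.1), a title-number block, leaving out each library, a stricter threshold of 0.01 and testing against 1.5-fold.

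The genes, lists and markers were chosen with earlier results of these data known. Named in full were the 9 genes of other families and the 3 with the highest CPM in each family. In the lists, genes with small p and all genes not called were named, and other genes were chosen after their values were seen. Entrez identifiers are as deposited. Coordinates and promoters are from RefSeq on GRCm38, the assembly of mm10, and transcripts from GENCODE M21, compared with Biopython 1.88 in Python 3.11.15. Figures were drawn with matplotlib 3.10.9.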

Additional observations from a re-analysis of the deposited data

How the results depend on the processing

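Under the alternatives the number of envelope precursor genes called higher was 39 to 43 and the number called lower was 0. DESeq2 gave 39 because it returned no adjusted p for Sprr3, and the fit without a low-count filter gave 43. All 559 values of single envelope genes kept their direction and side of the threshold, and 26 genes moved by more than 1.5-fold with 1 library left out; the cause was not tested. For Lce3 the median log2 ratio of mean CPM was 7.77 gene by gene and 6.89 with the copies summed within the family. Of basal epithelium genes, 0 to 1 were lower with a library left out, Dst being the 1 called lower, without control replicate 3. With each library left out in turn, the log2 fold change of Blmh ran from -0.28 to 0.07, that of Smpd1 from -0.14 to 0.16 and that of Pth from -0.70 to 0.03. Smpd1 also turned to -0.04 without a low-count filter and -0.09 with the title-number block, and Pth to 0.18 with the block. Among other list and neighbouring genes, 1404 of 1428 values kept direction and side. Over all genes 4765 were lower, and 2654 in the test against a 1.5-fold change. Replicate numbers follow accession order and pair no libraries. The block for the number range in the titles changed no envelope gene's call. Depth limits Lce1, Lce6a and Flg2, whose control values rest on 0 to 11 reads per gene. It likewise limits Sprr2k and Lce3e with 1 control read, Lce3a and Lce3f with 2, and Sprr2g and Lce3d with 4. Sprr3 had 5 control reads, Sprr2h and Sprr2j-ps 6 each, Sprr4 7 and Sprr2e 10.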
